A study of Mus musculus with 18 samples.

Results

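Burst-forming erythroid progenitors (BFU-E) were set against multipotent progenitors (MPP) from stressed mouse spleen. The comparison rested on 6 of the 18 samples of the series, the 3 BFU-E and the 3 MPP libraries of the spleen RNA count table. Genes entered if their counts averaged at least 50 across all 9 spleen libraries, the third population being colony-forming erythroid progenitors (CFU-E), and 10166 of 24072 genes did. All cells had the B6SJL strain background. Every spleen was taken at day 8 after its host had been lethally irradiated and given whole, unfractionated bone marrow, so both populations shared the irradiation and the transplant. No age or sex is given in the labels, and whether the cells came from donor or host was not separated. Cells carrying B220, CD4, CD8, Gr-1 or Ter-119 were removed before sorting, and the sort used c-Kit, Sca1, CD9, CD24a, CD150, CD71 and CD133. The labels name the MPP by the presence of Sca1 and the BFU-E by its absence, and they do not say whether the 3 libraries of a population came from separate mice, so the p-values measure only the spread between these libraries.

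An MPP can still give rise to several blood lineages and keeps regulators and adhesion genes of stem cells. A BFU-E is the earliest progenitor recognised by the large red cell colonies it forms, and it comes before haemoglobin is made. Red cells and platelets share precursors that use the same pair of factors, GATA1 and its partner FOG1, and in mice that recover from irradiation the spleen is a main site where these precursors expand.

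Sca1 itself, encoded by Ly6a, checked the labels. Its counts were 261, 120 and 142 in the MPP libraries and 2, 0 and 9 in the BFU-E libraries. The summed level of 6 stem and MPP markers (Procr, Mecom, Hlf, Ly6a, Cd34 and Flt3) was 322 to 398 CPM in MPP and 69.6 to 75.6 CPM in BFU-E, where CPM are counts scaled by library size with TMM factors. The summed level of 6 BFU-E and CFU-E markers was 167 to 219 CPM in MPP and 281 to 326 CPM in BFU-E. The 6 erythroblast markers summed to 11.2 to 11.7 CPM in MPP and 2.91 to 13.7 CPM in BFU-E, which overlap. The 4 markers of T and NK cells summed to 30.3 to 35.9 CPM in MPP and 52.7 to 68.1 CPM in BFU-E. Most of this was Nkg7, a granule protein gene of cytotoxic cells, with 394, 193 and 235 counts in MPP and 704, 567 and 865 in BFU-E. It was called higher but kept the call only without MPP 2 (edgeR adjusted p of up to 0.161 otherwise), and Cd3e, which defines T cells, was at 0 counts in all 6 libraries. The 6 markers of monocytes, macrophages and dendritic cells summed to 57.0 to 116 CPM in MPP and 73.3 to 148 CPM in BFU-E, which overlap, with C1qa at 0 counts in all 6. The part of such cells in the results was not tested.

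Depth ranged from 10598773 to 12978458 counts in BFU-E and from 5937778 to 13197159 counts in MPP. A single coefficient of variation common to all genes, estimated by edgeR within each population, was 0.276 in MPP and 0.224 in BFU-E. Of the counts in MPP, the entry Rn45s, named for the precursor of ribosomal RNA, took 16.0% to 22.6%, against 10.6% to 11.4% in BFU-E. The groups did not overlap. Whether these reads came from the precursor or from mature ribosomal RNA was not measured. In a fit without Rn45s and the other abundant non-coding RNAs 425 genes were called, against 420 with them. Of 47 counts of called list members 44 were the same in that fit, and 3 differed by 1.

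Between BFU-E and MPP, 420 of 10166 genes (4.13%) passed an edgeR quasi-likelihood test at a Benjamini-Hochberg adjusted p under 0.05. Of these, 206 (2.03%) were higher and 214 (2.11%) were lower in BFU-E. More of the falls than of the rises were at least 2-fold. Among the lower genes 127 changed at least 2-fold and 52 at least 4-fold, with a median log2 fold change of −1.16. Among the higher genes 67 changed at least 2-fold and 29 at least 4-fold, with a median of 0.76, and the median over all genes tested was −0.001. Leaving out a single library left 225 to 336 called genes, fewest without BFU-E 1, and 168 of the 420 kept their call in all 6 such fits. No called gene changed sign in any fit. The genes named below with no remark on this point kept their call in all 6.

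**Figure D1:**
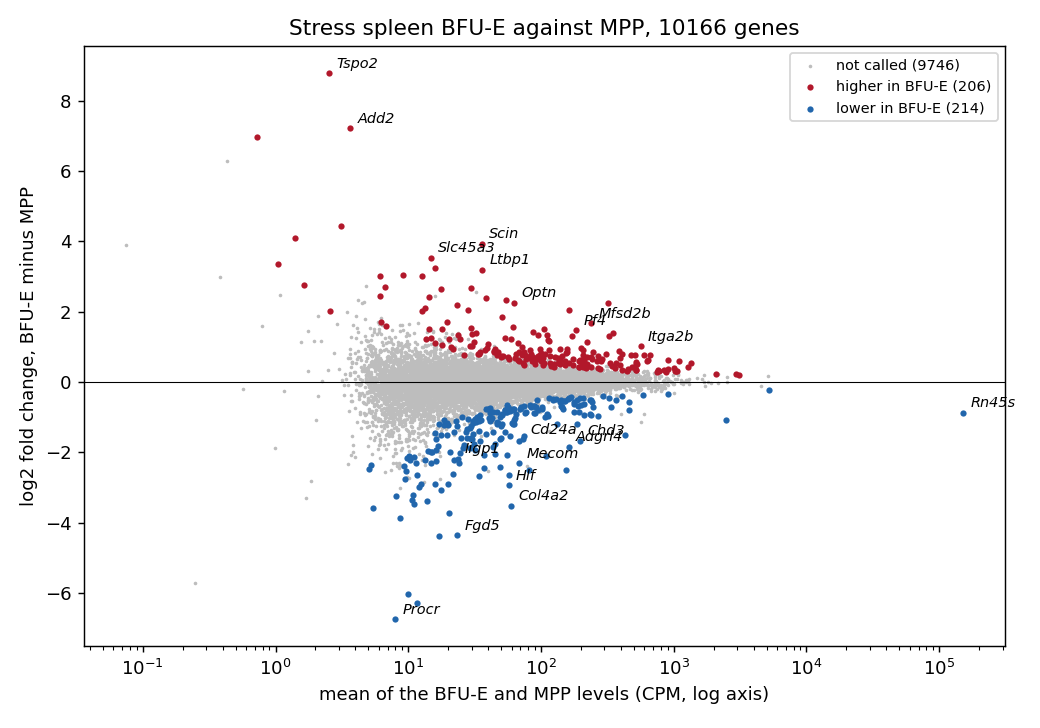
Log2 fold change of BFU-E against MPP (vertical axis) for 10166 genes by their mean level in both populations (horizontal axis, CPM, log scale). The 206 red points are genes called higher and the 214 blue points genes called lower in BFU-E; the blue points reach a log2 fold change of −6.74 (Procr) and include Rn45s at the far right.

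Regulators of stem cell identity were lower in BFU-E. Of 33 tested members of a list of stem cell transcription regulators, 9 fell and 0 rose in edgeR (27.3% called, against 4.13% of all genes tested). In the list 2 rose at an unadjusted p under 0.05 and 1 by DESeq2. The median log2 fold change was −0.27 against −0.001 over all genes tested. Leaving out a library left 5 to 8 of the falls, fewest without BFU-E 1. Mecom (chromosome 3, 29951296 to 30013204, mm10) encodes EVI1, a zinc finger factor needed to maintain stem cells. It measured 113, 124 and 106 CPM in the MPP libraries and 18.7, 30.9 and 20.0 CPM in the BFU-E libraries. The groups lay far apart, with a log2 fold change of −2.30 (SE 0.22, edgeR adjusted p = 8.22e-07).

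Its relative Prdm16, a histone methyltransferase that preserves stem cells, was at 53.7, 75.7 and 47.6 CPM in MPP and 10.1, 7.94 and 9.84 CPM in BFU-E. This was a log2 fold change of −2.66 (SE 0.31, edgeR adjusted p = 1.47e-05). Nkx2-3, a homeobox factor also known for shaping the spleen, had the largest fall of the list, from 39.3, 44.8 and 29.5 CPM to 3.74, 3.42 and 1.42 CPM (log2 fold change −3.72 with an SE of 0.47, edgeR adjusted p = 3.09e-05). Every MPP library was above every BFU-E library for each of these genes. Msi2, an RNA-binding protein that holds stem cells in an undifferentiated state, changed less, with a log2 fold change of −0.96 (SE 0.14, edgeR adjusted p = 0.000151). Hlf, a leucine zipper factor of stem cells, also kept its call in all 6 fits without a library, at −2.93. Each of the other 4 calls was lost without some libraries. Erg (−0.68) lost its call without BFU-E 1, BFU-E 2 or MPP 3 and Hoxa9 (−1.15) without BFU-E 1, BFU-E 3, MPP 2 or MPP 3, at edgeR adjusted p of up to 0.072 and 0.11. Ikzf2 (−0.84) lost it without BFU-E 1, BFU-E 2, MPP 1 or MPP 2 and Nr4a1 (−0.95) without any library but MPP 1, at edgeR adjusted p of up to 0.113 and 0.146. In CFU-E, measured in the same fit, Mecom was at 3.58 CPM and Nkx2-3 at 1.26 CPM.

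**Figure D2:**
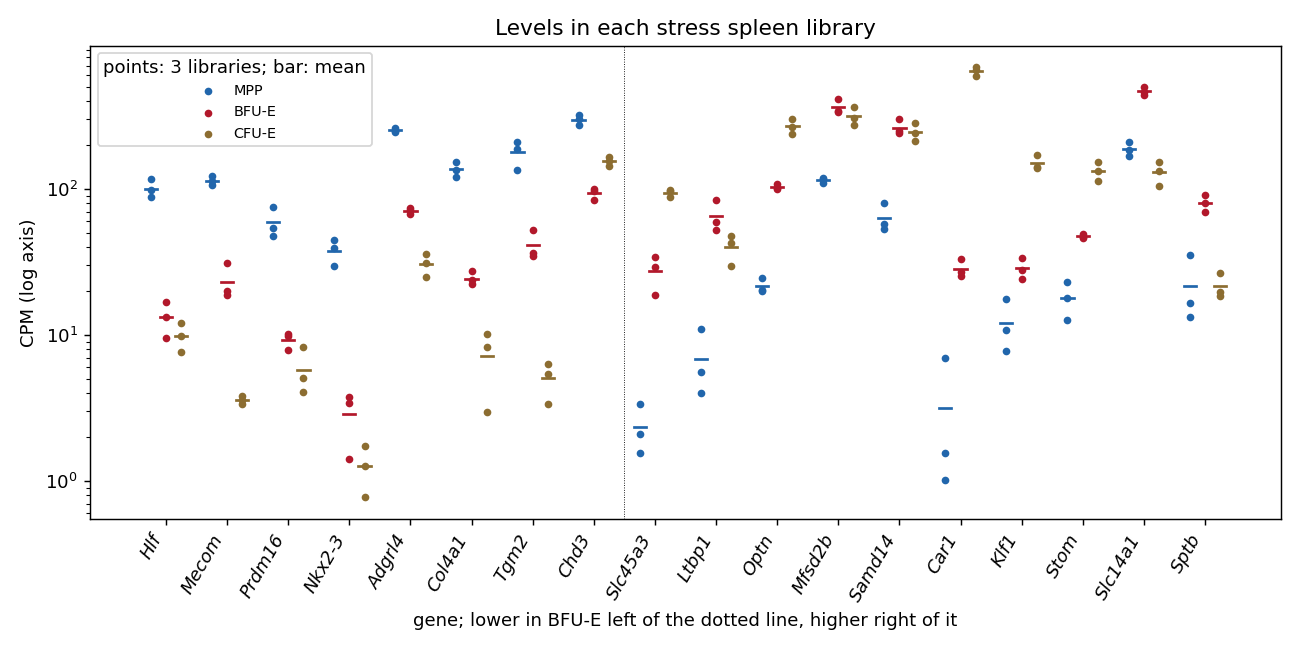
Levels of 18 genes (CPM, log axis) in each of the 3 MPP (blue), 3 BFU-E (red) and 3 CFU-E (brown) libraries, with a bar at the mean; genes left of the dotted line were lower in BFU-E than in MPP and genes right of it higher. Blue and red points do not overlap for any gene shown, and Car1 spans 1.01 to 6.97 CPM in MPP and 25.5 to 32.9 CPM in BFU-E.

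More surface and matrix genes of stem cells fell than rose. Of 36 tested members, 12 fell and 2 rose (38.9% called, against 4.13% of all genes tested), with a median log2 fold change of −0.52. Leaving out a library left 9 to 11 of the falls, fewest without BFU-E 1. Procr encodes the endothelial protein C receptor, a marker of the most primitive stem cells. It had 288, 88 and 77 counts in MPP and 2, 3 and 0 in BFU-E (log2 fold change −6.74 with an SE of 0.91, edgeR adjusted p = 7.11e-05). This was the largest fall among the genes tested. With 0, 1 and 0 counts in CFU-E, Procr passed the filter through its MPP counts alone, so its rank depends on that filter. Fgd5, a guanine nucleotide exchange factor used as a stem cell marker, was at 46.2, 49.2 and 37.7 CPM in MPP and 0.299, 5.54 and 0.787 CPM in BFU-E. At levels this near 0 the fitted fold depends on few counts.

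Genes at higher levels gave the same direction. Adgrl4, an adhesion G protein-coupled receptor, was at 263, 248 and 246 CPM in MPP and 71.2, 73.8 and 67.2 CPM in BFU-E (log2 fold change −1.83 with an SE of 0.14, edgeR adjusted p = 5.19e-08). The neighbouring genes Col4a1 and Col4a2, which encode chains of basement membrane collagen and start within 100 kb of each other on chromosome 8, fell together, with log2 fold changes of −2.49 (SE 0.28) and −3.51 (SE 0.35). The crosslinking enzyme transglutaminase 2 (Tgm2) fell by 2.11 on the log2 scale (SE 0.22, edgeR adjusted p = 2.38e-06). Cd34, a sialomucin of progenitors, was at 54.2, 118 and 87.4 CPM in MPP and 28.2, 32.4 and 28.8 CPM in BFU-E. Its log2 fold change was −1.53 (SE 0.25, edgeR adjusted p = 0.000469).

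The list was not uniform. Col5a1, a fibrillar collagen chain, rose from 1.24, 0 and 2.58 CPM to 13.5, 7.20 and 12.1 CPM (log2 fold change 3.02 with an SE of 0.48, edgeR adjusted p = 0.000424). Itgb3, the β3 integrin that pairs with the platelet integrin αIIb, was the other member to rise. On chromosome 6 the immune GTPase genes Gimap8 and Gimap6 lay among 3 called neighbours and fell by 3.39 and 1.43 on the log2 scale. The third, Gimap1 (−0.83), kept its call only without MPP 1, with an edgeR adjusted p of up to 0.136 otherwise.

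Among the 7 tested genes of antigens used for depletion or sorting, 4 were lower and 1 was higher in BFU-E. These levels are partly set by the gates and are given as a description. Cd24a was at 95.8, 124 and 112 CPM in MPP and 42.9, 33.7 and 30.4 CPM in BFU-E. Kit, which encodes the receptor for stem cell factor, was at 401, 454 and 437 CPM in MPP and 250, 330 and 329 CPM in BFU-E. Every MPP library was above every BFU-E library for both, and their CFU-E means were 175 and 492 CPM. Cd9, a tetraspanin, went the other way, with 84.4, 74.8 and 80.1 CPM in MPP and 165, 140 and 142 CPM in BFU-E. Without BFU-E 1, Kit and Cd9 had edgeR adjusted p of 0.0769 and 0.0735. Slamf1, which encodes CD150, was at 63.1 to 75.8 CPM in MPP and 40.1 to 58.4 CPM in BFU-E without passing the test (edgeR adjusted p = 0.336).

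A few erythroid regulators were higher in BFU-E. Of 30 tested members of that list 4 rose and 0 fell in edgeR (13.3% called, against 4.13% of all genes tested), with a median log2 fold change of 0.05. At an unadjusted p under 0.05 the list had 7 higher and 2 lower, and DESeq2 called 6 higher and 0 lower. The libraries did not overlap upward for 11 of the 30, where 10.5% of all genes did so. Klf1, the factor that switches on adult globin and red cell membrane genes, was at 10.9, 7.78 and 17.5 CPM in MPP and 28.1, 24.2 and 33.5 CPM in BFU-E. Tal1, a basic helix-loop-helix factor that binds DNA with GATA1, was at 171, 183 and 190 CPM in MPP and 269, 251 and 259 CPM in BFU-E. The groups did not overlap for either, and the log2 fold changes were 1.24 for Klf1 (SE 0.23, edgeR adjusted p = 0.00277) and 0.52 for Tal1 (SE 0.10, edgeR adjusted p = 0.00413). Zfpm1, which encodes FOG1, was already abundant in MPP at 804 to 933 CPM and reached 1126 to 1172 CPM in BFU-E.

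Gata1 was at 69.7, 53.4 and 91.4 CPM in MPP and 119, 101 and 121 CPM in BFU-E (log2 fold change 0.67 with an SE of 0.16, edgeR adjusted p = 0.0202). Its call was lost without BFU-E 1, BFU-E 3, MPP 1 or MPP 2, with an adjusted p of up to 0.097. In CFU-E, Gata1 stood at 159 CPM and Klf1 at 151 CPM. On the list of erythropoietin receptor and STAT5 signalling, 4 of 23 tested members fell (17.4% called, against 4.13% of all genes tested). They included Ptpn6, the phosphatase SHP-1 that ends receptor signals (log2 fold change −0.68 with an SE of 0.13, edgeR adjusted p = 0.00376), and the sialomucin Podxl (−0.86, SE 0.17, edgeR adjusted p = 0.00506). The other 2, Sh2b3 (−0.81) and Plcg1 (−0.70), each lost the call without BFU-E 1, MPP 2 or MPP 3, and without BFU-E 3 or BFU-E 2 respectively, at edgeR adjusted p of up to 0.127 and 0.125.

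Red cell membrane genes showed the clearest erythroid change. Of 31 tested members 8 rose and 1 fell (29.0% called, against 4.13% of all genes tested), while the median log2 fold change was only 0.08. Add2, β-adducin of the membrane skeleton, had 1, 0 and 0 counts in MPP and 69, 70 and 129 in BFU-E. The ratio of the summed counts was 192, with a 95% exact interval of 34.2 to 7610 that covers counting error only. Add2 passed the filter only through CFU-E, with 1065, 1127 and 778 counts there (a mean of 85.7 CPM). Sptb, β-spectrin, was at 35.3, 16.6 and 13.3 CPM in MPP and 90.7, 79.9 and 69.3 CPM in BFU-E (log2 fold change 1.86 with an SE of 0.29, edgeR adjusted p = 0.000348).

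Stom, the membrane protein stomatin, was at 12.6 to 23.1 CPM in MPP and 49.1, 46.2 and 47.0 CPM in BFU-E. The urea transporter Slc14a1, which carries the Kidd blood group, was at 185, 208 and 168 CPM in MPP and 502, 442 and 458 CPM in BFU-E. Both groups of libraries lay apart, with log2 fold changes of 1.40 (SE 0.20, edgeR adjusted p = 0.000167) and 1.32 (SE 0.13, edgeR adjusted p = 1.39e-06). The water channel Aqp1 rose by 0.94 on the log2 scale (SE 0.12, edgeR adjusted p = 3.51e-05) and the spectrin anchor Ank1 by 1.59 (SE 0.32, edgeR adjusted p = 0.0039). The member that fell was Atp2b4, a plasma membrane calcium pump (−0.57, SE 0.12, edgeR adjusted p = 0.00458). In CFU-E, Sptb and Slc14a1 were at 21.5 and 130 CPM, and Stom and Ank1 at 133 and 242 CPM.

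A few haem and iron genes were called. Of 21 tested members of the haem list 3 rose (14.3% called, against 4.13% of all genes tested), with a median of 0.11. Of these, Ank1 is the membrane gene already given. The other 2 were coproporphyrinogen oxidase Cpox (0.54) and the iron-sulphur cluster protein Iba57 (1.11), which each kept the call in 1 of 6 fits that left out a library, without MPP 3. Of 24 tested iron genes 2 rose and 0 fell (8.33% called, against 4.13% of all genes tested). The endosomal ferrireductase Steap3 was at 25.6, 22.98 and 31.3 CPM in MPP and 49.5, 51.3 and 54.2 CPM in BFU-E, and its log2 fold change was 0.95 (SE 0.18, edgeR adjusted p = 0.002). The iron importer Slc11a2 (1.06) kept its call only without MPP 2, with an edgeR adjusted p of up to 0.138. The transferrin receptor Tfrc was at 65.1 to 103 CPM in MPP and 105 to 131 CPM in BFU-E and missed the threshold (edgeR adjusted p = 0.0828).

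Some genes outside that core rose from near 0. Car1, carbonic anhydrase 1 of the early erythroid lineage, was at 1.01, 1.56 and 6.97 CPM in MPP and 27.1, 25.5 and 32.9 CPM in BFU-E (log2 fold change 3.25 with an SE of 0.33, edgeR adjusted p = 2.38e-06). Its relative Car2 went down, from 450 to 482 CPM in MPP to 337 to 373 CPM in BFU-E, and lost its call without BFU-E 1 (edgeR adjusted p = 0.0594). Tspo2, a cholesterol-binding protein of erythroid cells, had 0 counts in all 3 MPP libraries and 60, 65 and 59 in BFU-E. Against a floor of 3 counts over the MPP group it was at least 44.4-fold higher. Tspo2 passed the filter only through CFU-E, with 441, 477 and 341 counts there (a mean of 36.4 CPM). Genes with such counts in BFU-E and MPP but few in CFU-E were not tested.

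Genes of megakaryocytes, the cells that shed platelets, were higher in BFU-E. Of 44 tested members 17 rose and 0 fell in edgeR (1 fell at an unadjusted p under 0.05 and 1 by DESeq2), with a median log2 fold change of 0.46. This was 38.6% called, against 4.13% of all genes tested. The libraries of the groups did not overlap upward for 25 of the 44, where 10.5% of all genes tested did so. Leaving out a library left 10 to 14 of the rises, fewest without BFU-E 1. Of these genes, Cd9, Gata1, Zfpm1 and Itgb3 also stand on lists above.

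Promoters of the called members are shown first for a pair of genes in which GATA and ETS letters stand close together. The windows come from RefSeq promoters of GRCm38.p6, 5′ to 3′ on the gene's strand, and the capitals mark matches on either strand to 3 motifs. The motif searched for the GATA factors was AGATAA. For factors of the ETS family the letters were AGGAAG. For the AP-1 family and its erythroid relative NFE2 they were TGACTCA.
Gp5 (chr16:30310817-30310891, minus strand): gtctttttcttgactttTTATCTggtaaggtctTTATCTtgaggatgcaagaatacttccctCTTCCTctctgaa
F2rl2 (chr13:95696805-95696879, plus strand): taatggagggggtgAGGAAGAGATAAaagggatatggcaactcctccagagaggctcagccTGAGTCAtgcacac
In Gp5 the GATA letters begin 93 and 77 bases before the start site, and the ETS letters 48 bases before it. In F2rl2 an ETS match runs directly into a GATA match, 101 and 95 bases before the start, without overlapping it. Of all 32817 promoters of this length, 11.2% hold the GATA letters, 35.4% the ETS letters and 5.2% the AP-1 letters. The promoter table held 31 of the 44 list members, so counts over it do not cover the list. Of these 31, 4 (12.9%) held the GATA letters and 18 the ETS letters. Among the 13 called members it held, 3 had the GATA and 8 the ETS letters. A match is a description of letters and no evidence of binding.

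Gp5 encodes glycoprotein V of the platelet receptor for von Willebrand factor. It was at 43.7, 21.6 and 41.0 CPM in MPP and 76.8, 87.5 and 85.0 CPM in BFU-E (log2 fold change 1.22 with an SE of 0.24, edgeR adjusted p = 0.00342). F2rl2, a thrombin receptor, was at 54.2, 44.2 and 29.7 CPM in MPP and 102, 91.8 and 80.7 CPM in BFU-E. It lost its call without BFU-E 1, BFU-E 2 or MPP 3 (edgeR adjusted p of up to 0.108). Its neighbour F2r, the main thrombin receptor on many cells, starts within 100 kb on chromosome 13 and rose too (0.79, SE 0.10, edgeR adjusted p = 5.56e-05).

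Itga2b encodes integrin αIIb, also known as CD41, which marks both platelets and early progenitors. It was at 382, 409 and 327 CPM in MPP and 766, 783 and 721 CPM in BFU-E (log2 fold change 1.02 with an SE of 0.10, edgeR adjusted p = 1.13e-06). Its partner Itgb3 was at 99.3, 96.9 and 102 CPM in MPP and 274, 233 and 227 CPM in BFU-E. Both subunits thus stood well apart between the groups.

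The platelet chemokine Pf4 was at 95.4, 105 and 92.3 CPM in MPP and 282, 305 and 228 CPM in BFU-E (log2 fold change 1.48 with an SE of 0.18, edgeR adjusted p = 2.88e-05). Plek, pleckstrin of the platelet signalling machinery, rose by 1.39 on the log2 scale (SE 0.14), Rab27b of granule secretion by 1.19 (SE 0.18) and Slc35d3, a gene needed for platelet dense granules, by 1.35 (SE 0.20). In CFU-E these genes were low, with Pf4 at 0.359 CPM, Plek at 13.5 CPM and Itgb3 at 1.87 CPM. Of the 5 markers in the summed megakaryocyte set only Pf4 and Itga2b were called, and the others had edgeR adjusted p of 0.0585 to 0.947. In bulk RNA, more cells of a type and more RNA per cell cannot be told apart, so whether all BFU-E or only some of them held these transcripts was not measured.

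**Figure D3:**
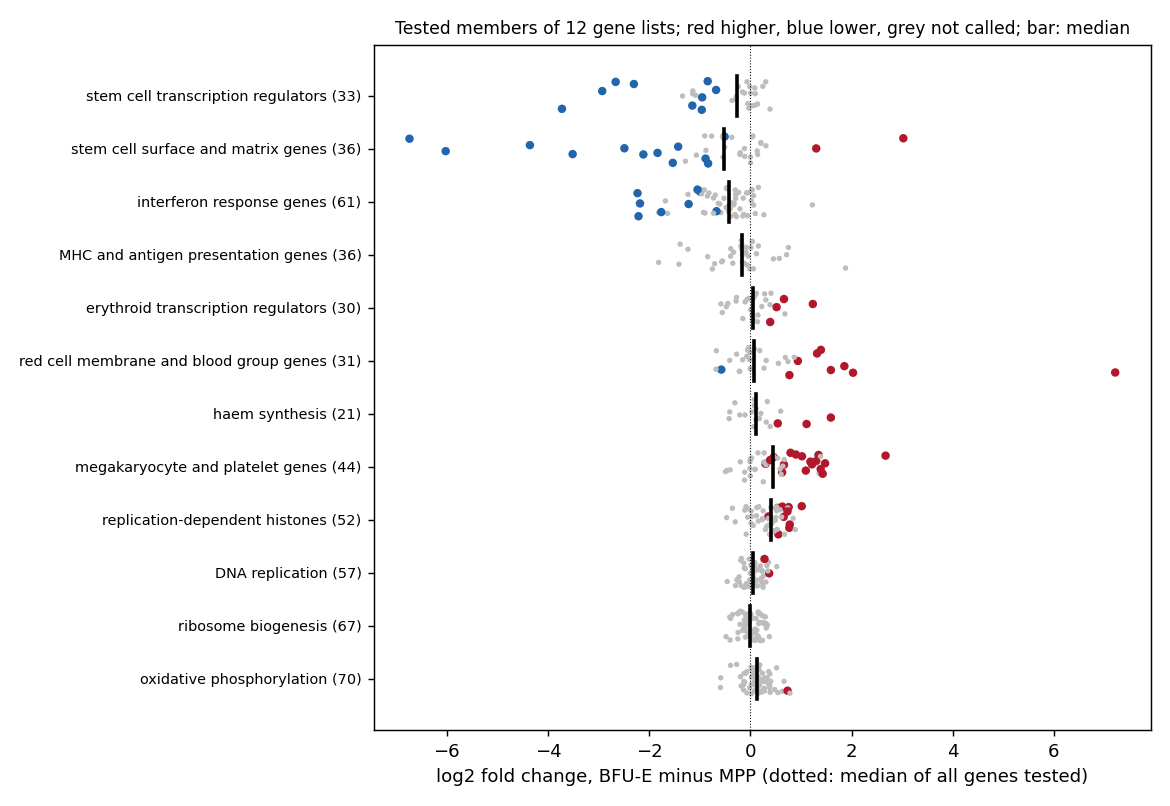
Log2 fold change of BFU-E against MPP (horizontal axis) for every tested member of 12 gene lists, 1 point a gene, with the number tested in parentheses and a bar at the list's median. Called genes (red higher, blue lower) lie left of 0 for stem cell regulators and interferon genes, right of 0 for the megakaryocyte list, whose median is 0.46, and are few or none in the last 3 lists.

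Markers of granulocytes and their precursors differed between libraries of the same population, in MPP and in BFU-E. Mpo, the myeloperoxidase of granules, had 3674, 106 and 181 counts in MPP 1, 2 and 3, and 6589, 5502 and 7656 in BFU-E. The summed level of 6 neutrophil markers was 484, 92.1 and 46.7 CPM in MPP and 710, 608 and 726 CPM in BFU-E. Elane, neutrophil elastase, had 349 counts in MPP 1 and 0 in MPP 2 and 3, against 513 to 939 in BFU-E. The later granule genes had another pattern, with the highest level in library 1 of MPP, of BFU-E and of CFU-E for each gene given next. S100a9, a calcium-binding protein of neutrophils, had 1088, 132 and 2 counts in MPP and 661, 99 and 50 in BFU-E, and its partner S100a8 had 365, 26 and 0 in MPP and 185, 23 and 30 in BFU-E. Ltf, lactoferrin, had 400, 148 and 0 counts in MPP and 772, 0 and 1 in BFU-E. Their log2 fold changes of −0.79, −0.85 and 0.03 missed the threshold (edgeR adjusted p of 0.813, 0.833 and 0.997). With all libraries Mpo had a log2 fold change of 2.26 (SE 0.59, edgeR adjusted p = 0.0326), and of the 5 fits that lost its call the highest adjusted p was 0.111. Only without MPP 1 did it hold. Of 12 tested neutrophil genes 2 rose with all libraries (16.7% called, against 4.13% of all genes tested), and 4 rose without MPP 1. The gene called besides Mpo was Ms4a3, which also held its call only without MPP 1 (edgeR adjusted p of up to 0.146 otherwise).

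Mast cell and basophil genes were mostly too low to test, with 12 of 35 passing the filter. Il1rl1, the receptor for interleukin 33 that mast cells carry, was at 2.48, 0 and 2.97 CPM in MPP and 12.0, 16.3 and 20.9 CPM in BFU-E (log2 fold change 3.04 with an SE of 0.44, edgeR adjusted p = 0.000155). The defining mast cell protease genes stayed low, with Cpa3 at 44 to 69 counts in BFU-E, Mcpt8 at 0 to 36, and Tpsb2 at 0 in all 6 libraries.

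The marker set for mast cells and basophils summed to 6.36 to 19.6 CPM in BFU-E and to 0.931 to 14.4 CPM in MPP, which overlap. In CFU-E the set summed to 5.93 to 19.8 CPM, and Il1rl1 was at a mean of 85.9 CPM. The part of mast cells and basophils in the Il1rl1 result was not tested. Of 45 tested cytokine and growth factor receptors, 4 rose and 2 fell (13.3% called, against 4.13% of all genes tested). Without BFU-E 3 there were 2 rises left, and without BFU-E 1, BFU-E 2 or MPP 1 there was 1 fall left. Cnr2, a cannabinoid receptor of blood cells, rose from 18.1, 8.64 and 18.96 CPM to 40.9, 44.3 and 48.1 CPM (log2 fold change 1.53 with an SE of 0.27, edgeR adjusted p = 0.00138).

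**Figure D4:**
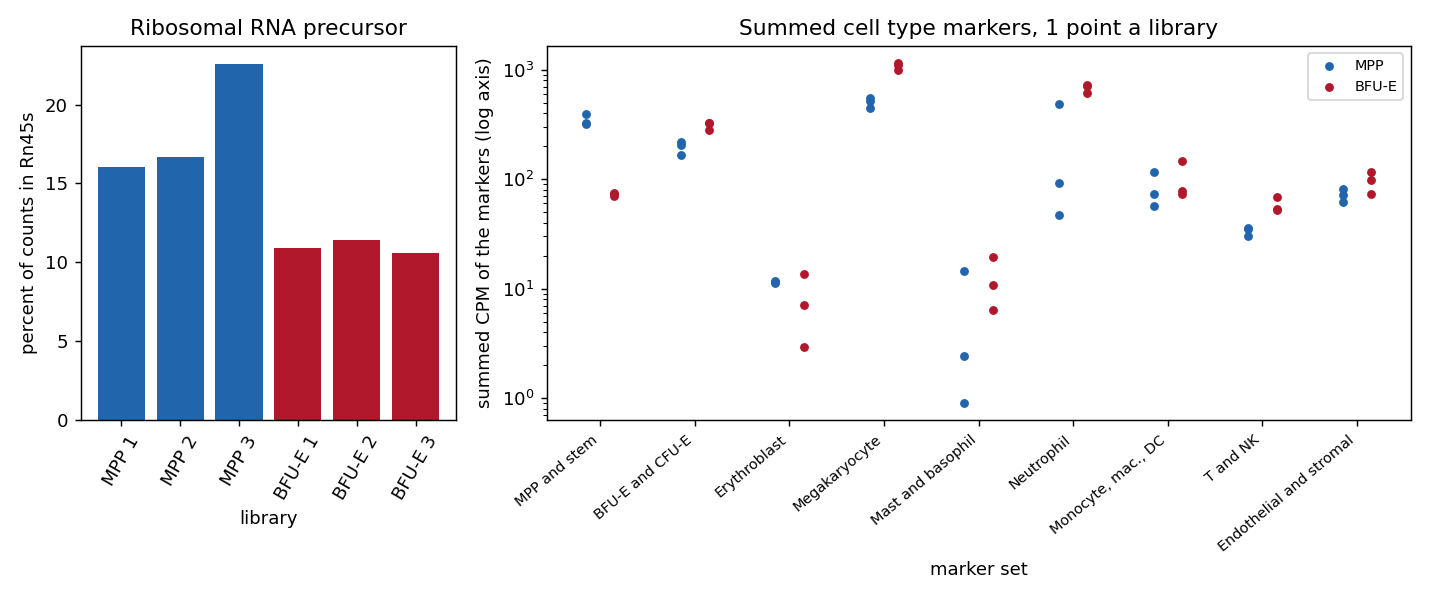
Left, percent of counts assigned to the entry Rn45s in each MPP (blue) and BFU-E (red) library. Right, summed CPM of each cell type's markers on a log axis, 1 point a library. MPP 1 stands near the BFU-E libraries for neutrophil markers (484 CPM against 92.1 and 46.7 in the other MPP libraries), and the summed megakaryocyte markers of MPP and BFU-E do not overlap.

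The TGF-beta and BMP pathway, which the stress response of the spleen is known to use, changed in 5 of 29 tested members, 3 higher and 2 lower. This was 17.2% called, against 4.13% of all genes tested. Tgfb1, the ligand, was at 560, 443 and 515 CPM in MPP and 760, 775 and 800 CPM in BFU-E (log2 fold change 0.62 with an SE of 0.10, edgeR adjusted p = 0.000408). Ltbp1, which binds the latent ligand in the matrix, was at 10.9, 3.97 and 5.55 CPM in MPP and 52.2, 83.9 and 59.4 CPM in BFU-E. Its log2 fold change was 3.20 (SE 0.32, edgeR adjusted p = 2.12e-06).

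The receptor gene Bmpr2 fell (−0.89), with the call lost without BFU-E 2 or MPP 1 (edgeR adjusted p of up to 0.0555). Acvr1b fell too (−1.01), with the call lost without BFU-E 1, BFU-E 2, MPP 2 or MPP 3 (up to 0.165). Thbs1 (1.43), whose product activates latent TGF-beta, rose, and kept that call only without MPP 3 (up to 0.115 otherwise). Of 26 tested WNT, hedgehog and Notch genes 0 were called in edgeR with all libraries, 6 passed an unadjusted p under 0.05 and 2 were called by DESeq2.

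Interferon response genes were lower in BFU-E. Of 61 tested members 8 fell and 0 rose in edgeR (13.1% called, against 4.13% of all genes tested). In the list 1 rose at an unadjusted p under 0.05 and 0 by DESeq2. The median log2 fold change was −0.43, and 52 of the 61 were below 0. The libraries did not overlap downward for 23 members, where 10.8% of all genes tested did so. Leaving out a library left 5 to 9 falls, fewest without BFU-E 1, BFU-E 3, MPP 1 or MPP 3.

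Promoters of 3 of the 8 held GAAA repeated with any 2 bases between, the core of the interferon-stimulated response element, and are shown for that reason. Capitals mark it on either strand, and TGACTCA, in RefSeq windows of GRCm38.p6 written 5′ to 3′ on the gene's strand.
Gbp3 (chr3:142559964-142560015, plus strand): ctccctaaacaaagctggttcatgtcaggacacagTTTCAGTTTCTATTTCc
Gbp5 (chr3:142496754-142496803, plus strand): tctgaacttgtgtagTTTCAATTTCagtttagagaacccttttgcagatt
Oas3 (chr5:120777700-120777779, minus strand): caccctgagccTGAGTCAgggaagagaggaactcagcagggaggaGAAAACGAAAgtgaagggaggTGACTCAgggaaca
In Gbp3 the pair of matches, 45 and 39 bases before the start site, overlap each other. The letters were in 3.43% of all promoters of this length and in 23 of the 49 list members found in the table. Of the 8 that fell, 5 were in the table.

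Oasl2, an oligoadenylate synthetase-like protein, was at 82.6, 63.4 and 62.0 CPM in MPP and 19.2, 22.8 and 19.6 CPM in BFU-E (log2 fold change −1.76 with an SE of 0.22, edgeR adjusted p = 2.58e-05). Iigp1, an immunity-related GTPase, was at 38.7, 45.1 and 32.0 CPM in MPP and 7.56, 9.14 and 8.81 CPM in BFU-E (−2.18, SE 0.36, edgeR adjusted p = 0.000649). All 3 MPP libraries were several times above all 3 BFU-E libraries for both.

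Oas2 fell by 2.23 on the log2 scale (SE 0.41) and Ifi44 by 2.21 (SE 0.44). The members with promoters shown changed less. Gbp5 (−1.22) lost its call without BFU-E 1, BFU-E 2, MPP 1 or MPP 3 and Oas3 (−1.04) without BFU-E 1, BFU-E 3, MPP 1 or MPP 3, at edgeR adjusted p of up to 0.133 and 0.203. Gbp3 (−0.99) held only without BFU-E 1, and Parp14 (−0.67) only without MPP 1 or MPP 3, with up to 0.171 and 0.106 otherwise. In CFU-E, Oasl2 stood at 27.4 CPM and Iigp1 at 14.9 CPM. Of 36 tested MHC and antigen presentation genes 0 were called in edgeR, 9 passed an unadjusted p under 0.05 and 1 was called by DESeq2, with a median log2 fold change of −0.16.

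Replication-dependent histone genes, whose RNAs mostly lack poly(A) tails and are made in S phase, included several that rose. Of 52 tested members 10 (19.2%) rose, against 2.03% of all genes tested, and 42 were not called. The median log2 fold change was 0.42, and the libraries did not overlap upward for 23, where 10.5% of all genes did so. The linker histone gene Hist1h1d was at 453, 426 and 435 CPM in MPP and 821, 730 and 690 CPM in BFU-E (log2 fold change 0.77 with an SE of 0.11, edgeR adjusted p = 0.000151). Hist1h1b and Hist1h1c rose by 0.76 (SE 0.12) and 0.55 (SE 0.11). Without BFU-E 1 only 3 of the list were called, and without MPP 2 there were 11. Many genes of the list are close copies in clusters, so reads may be split among them, to an extent not measured for the linker histone genes named. Of those called, 7 lie between 23555032 and 23764412 on chromosome 13.

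Lists of DNA replication and mitosis genes were called at about the share of all genes tested. Of 57 tested DNA replication genes 2 rose (Mcm6 and Pola1, at log2 fold changes of 0.28 and 0.37), and of 58 mitosis genes 1 rose and 1 fell. These were 3.51% and 3.45% called, near the 4.13% of all genes tested. Mcm6 kept its call only without MPP 3, and Pola1 lost it without any single library (edgeR adjusted p of up to 0.157 and 0.224). The G1 kinase Cdk6 was at 1150, 1054 and 1065 CPM in MPP and 1407, 1464 and 1524 CPM in BFU-E (log2 fold change 0.43 with an SE of 0.07, edgeR adjusted p = 0.000443), and the repressor E2f8 rose by 0.61 (SE 0.12, edgeR adjusted p = 0.0039). Some abundant non-coding RNAs, which the total RNA kit also reads, fell. Of 23 tested small nucleolar RNA genes 5 fell and 18 were not called, where 2.11% of all genes tested fell. Their median log2 fold change was −1.74. Their share of counts was 0.0760% to 0.222% in MPP and 0.0456% to 0.0668% in BFU-E. Rn45s had a log2 fold change of −0.87 (SE 0.10) and Rpph1, the RNA of RNase P, of −1.08 (SE 0.16). The part of library preparation in these differences was not tested.

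Housekeeping and metabolic lists gave few calls, where 4.13% of all genes tested were called. In edgeR 0 of 67 tested ribosome biogenesis genes, 46 nucleotide and one-carbon genes, 43 cholesterol and fatty acid genes and 28 BCL2 family and p53 target genes were called. In that order 7, 8, 5 and 2 of them passed an unadjusted p under 0.05, and DESeq2 called 0, 1, 1 and 0. Of 70 oxidative phosphorylation genes 1 rose (1.43%), with a list median of 0.13, and of 56 cytosolic ribosomal protein genes 1 rose (1.79%), with a median of 0.20. Of those 56, 16 were higher and 0 lower at an unadjusted p under 0.05, DESeq2 called 7 higher and 0 lower, and the libraries did not overlap upward for 17. Optn, an autophagy receptor, was the single autophagy gene called among 54, and its change was large. It was at 20.1, 20.4 and 24.6 CPM in MPP and 102, 101 and 108 CPM in BFU-E (log2 fold change 2.25 with an SE of 0.14, edgeR adjusted p = 7.74e-09), and it stood at 268 CPM in CFU-E.

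Cytoskeletal genes went both ways, with 5 of 65 tested members higher and 8 lower (20.0% called, against 4.13% of all genes tested). Without BFU-E 1 or BFU-E 3 only 3 were lower, and without BFU-E 2 only 3 were higher. Scin, a protein that severs actin filaments, was at 7.29, 0.691 and 3.87 CPM in MPP and 57.3, 69.3 and 76.2 CPM in BFU-E (log2 fold change 3.93 with an SE of 0.35, edgeR adjusted p = 3.56e-07). Tuba8, an α-tubulin, rose by 0.90 (SE 0.15). Myh10, a non-muscle myosin, was at 140, 131 and 166 CPM in MPP and 84.4, 62.8 and 86.5 CPM in BFU-E (−0.90, SE 0.13, edgeR adjusted p = 0.000114). Its CFU-E level was 520 CPM, the highest of the 3 populations. Of 53 tested adhesion and homing genes 8 rose and 1, Cd34, fell (17.0% called), and without BFU-E 1 the rises numbered 5. The α4 integrin gene Itga4 rose by 0.50 (SE 0.09) and the αL integrin gene Itgal by 0.85 (SE 0.16). Among 69 chromatin regulators 1 rose and 3 fell (5.8% called, near the 4.13% of all genes tested). Hdac7, a class IIa deacetylase, rose by 0.95 (SE 0.13, edgeR adjusted p = 7.11e-05), and the 3 that fell (Dnmt3b, Kdm6b and Setd7) each lost the call without any single BFU-E library and without 1 or 2 MPP libraries.

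The lists held 80 of the 206 higher and 54 of the 214 lower genes, so most called genes stood on none. Chd3, a nucleosome remodeller, was at 272, 300 and 322 CPM in MPP and 97.2, 84.1 and 99.3 CPM in BFU-E (log2 fold change −1.67 with an SE of 0.12, edgeR adjusted p = 3.37e-08). Mfsd2b (chromosome 12, 4862438 to 4874359), which exports sphingosine 1-phosphate from red cells and platelets, was at 109, 116 and 119 CPM in MPP and 335, 342 and 416 CPM in BFU-E (log2 fold change 1.67 with an SE of 0.12, edgeR adjusted p = 4.33e-08). Samd14, a protein known to enhance Kit signalling in erythroid regeneration, was at 80.1, 57.2 and 53.1 CPM in MPP and 302, 240 and 248 CPM in BFU-E. Its log2 fold change was 2.04 (SE 0.16, edgeR adjusted p = 5.19e-08).

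The transporter gene Slc45a3 was at 2.10, 1.56 and 3.35 CPM in MPP and 18.8, 29.1 and 34.2 CPM in BFU-E (log2 fold change 3.53 with an SE of 0.30, edgeR adjusted p = 1.69e-07). Trib2, a pseudokinase, was at 0.388, 3.11 and 5.55 CPM in MPP and 12.8, 24.9 and 29.1 CPM in BFU-E, with a log2 fold change of 3.02 (SE 0.46). Among falls, Prex2, an exchange factor for the GTPase Rac, went from 18.6, 35.4 and 14.6 CPM to 0.0748, 0.831 and 0 CPM. Myof, a ferlin of membrane repair, went from 32.7, 29.0 and 36.2 CPM to 4.04, 0 and 0.551 CPM. The chaperone gene Hsp90ab1, among the most abundant called, had a small change (−0.24, SE 0.04, edgeR adjusted p = 0.00253) with no overlap between 5357 to 5975 CPM in MPP and 4666 to 4920 CPM in BFU-E. Grb10, an imprinted inhibitor of growth factor receptors, was the single called member of 10 tested imprinted genes (−1.18, SE 0.16, edgeR adjusted p = 5.44e-05).

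Accessible chromatin of the same BFU-E population was profiled by ATAC-seq, which marks DNA open to a transposase, as 1 merged peak list without replicate values. An MPP peak list was not analysed here, so no change of chromatin from MPP could be measured. A peak within 1 kb of a start site was present at 90.3% of genes called higher, 84.6% of genes called lower and 95.1% of all genes tested. Peaks farther away were more numerous at called genes in either direction. The mean was 5.06 distal peaks per gene called higher and 5.05 per gene called lower, against 2.46 over all genes tested. At least 5 such peaks were assigned to 36.4%, 41.1% and 17.0% of genes in that order.

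The called genes were also longer, with a median span of 27.4 kb if higher, 44.4 kb if lower and 21.9 kb over all genes tested, and the part of length in the peak counts was not tested. In steady-state marrow BFU-E the means were 2.59, 2.55 and 1.23. The marrow list was shorter, with 35142 distinct peaks against 61661 in stress BFU-E, so the means of these populations are not on the same footing. Genes that fell varied widely in peaks. Mecom had 19 distal peaks and a promoter peak, and Hlf had 7 distal peaks. Prdm16 had a promoter peak and 0 distal peaks, and Erg and Oas2 were assigned none of either kind. Ltbp1 had 16 and F2rl2 13, while Slc45a3 had 4 distal peaks and none at its start. Among the promoters shown, Gbp3, Gbp5, Oas3, Gp5 and F2rl2 each had a peak within 1 kb of a start.

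**Figure D5:**
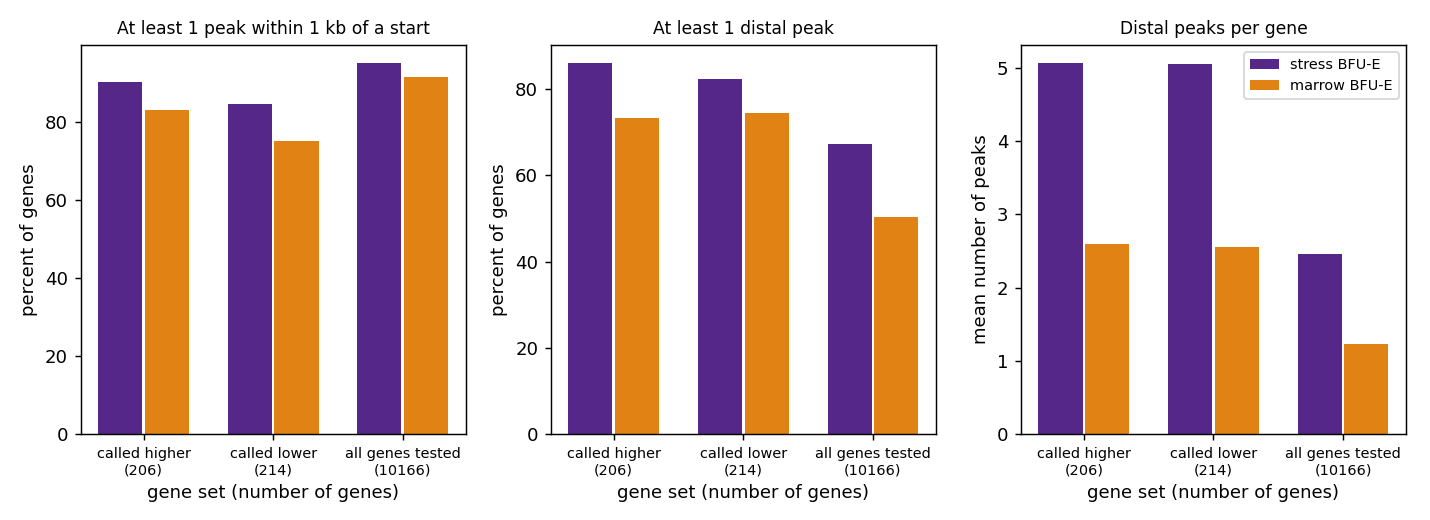
Percent of genes with an ATAC-seq peak within 1 kb of a start site (left) or with a distal peak (middle), and mean number of distal peaks per gene (right), for genes called higher (206), called lower (214) and all genes tested (10166), in stress spleen (purple) and steady-state marrow (orange) BFU-E. The called sets are alike in distal peaks, at means of 5.06 and 5.05 in stress BFU-E, and lie above the 2.46 of all genes tested. The stress list held 61661 distinct peaks and the marrow list 35142.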

How the data were processed

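RNA of sorted spleen cells was sequenced from libraries of a low-input, strand-marking total RNA kit, per the labels' protocols. The submitters' processing notes name STAR 2.6.0b-1, HOMER 4.8, Bowtie2 2.3.4.2 and DESeq2 with build mm10, without roles. Per the file headers, the authors counted reads over exons with HOMER, 1 transcript per gene, and deposited raw counts and RPKM. Whether counting used strand is not stated, and reads of antisense partners cannot be separated. The authors deposited 1 ATAC-seq peak list per BFU-E population with a score per peak and a distance to the nearest start. The peak caller is not given in the sources used here, and 12 per-sample columns were not used.

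Counts were tested with edgeR 4.0.16 in R 4.3.3 (TMM factors, quasi-likelihood F test, two-sided, Benjamini-Hochberg adjustment over 10166 genes, threshold 0.05) with the 9 spleen libraries sharing 1 estimate of the spread. The SE is the log2 fold change divided by the square root of F. The method was tested on simulated data. DESeq2 1.42.0 was an alternative. Intervals of count ratios (scipy 1.17.1) were exact at 95%, and a group at 0 was compared with a floor of 3 counts.

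The promoter table matched 77.0% of tested genes, under the share needed, so a check of motifs over the called sets is void. Gene lists were described by counts and medians without a set test. Named by rule were the 15 largest rises and falls among called genes with a mean of at least 10 CPM and no overlap (clones and predicted genes left out), up to 5 called members per list and direction, the 2 most abundant members of lists without a call, the sort antigens, the 10 called genes of smallest p that changed at least 2-fold, and the 5 most abundant called genes per direction. Erg, Hoxa9, Ikzf2, Tspo2, Gp5, F2rl2, Rab27b, Slc35d3, Gimap1, Gimap6, Gbp3, Gbp5, Oas3, Elane, S100a8, S100a9 and Ltf were chosen after their values were seen. The members and lists were chosen with earlier results of these data known.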

Additional observations from a re-analysis of the deposited data

How the results depend on the processing

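Leaving out 1 library gave 225 to 336 called genes, 109 to 168 of them higher and 116 to 171 lower. Fewest were called without BFU-E 1 (225), BFU-E 2 (247) or BFU-E 3 (254). Without a filter on low counts 668 of 16279 genes were called, 311 higher and 357 lower, and DESeq2's Wald test called 619, of which 292 were higher and 327 lower. The cause of that difference was not tested. The other settings stayed within 1.5 times of 420, namely DESeq2's size factors (420), the 6 BFU-E and MPP libraries alone (470), a mean of 50 counts over those 6 (421) and the fit without abundant non-coding RNA (425). No called gene took the opposite sign in any of these fits, and 404 of the 420 were also called by DESeq2. The labels number the libraries 1 to 3 in both populations, and the count columns attach that number to the spleen (Spleen1 to Spleen3). Whether libraries of the same number came from the same spleen is not stated. With the replicate number as a block 476 genes were called, 232 higher and 244 lower. The deviations of same-numbered libraries correlated at 0.085, 0.036 and 0.038. These values are weak, but each BFU-E library correlated best with the MPP library of its own number. The main fit did not use the numbers as pairs, and whether they are pairs could not be decided. The shallowest library was MPP 2, at 5937778 counts, and without it 329 genes were called. Of the genes named, only 3 neutrophil genes changed sign under an alternative, none of them called in the fit with all 9 libraries. Leaving out 1 library gave log2 fold changes of −8.45 to 0.61 for Ltf (lowest without BFU-E 1, and −0.55 without MPP 3), −2.30 to 1.49 for S100a8 and −2.47 to 0.87 for S100a9 (both highest without MPP 1). With the replicate block Ltf was at −3.03 and S100a8 at 0.27. The cause of these reversals was not tested.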

Other observations

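Several abundant signalling genes that stood on none of the lists rose in BFU-E and kept the call in all 6 fits that left out a library. They were chosen after their values were seen. Syk, a tyrosine kinase downstream of platelet collagen receptors, was at a mean of 482 CPM in BFU-E and 298 CPM in MPP (log2 fold change 0.70, edgeR adjusted p = 0.000151). Ptpn11, which encodes the phosphatase SHP-2, was at 335 and 200 CPM (0.74, edgeR adjusted p = 9.88e-05), and Pde5a, a cyclic GMP phosphodiesterase, at 158 and 62.8 CPM (1.33, edgeR adjusted p = 7.07e-05). The transcription factor genes Zeb2 and Mef2c had log2 fold changes of 0.78 and 0.51. In CFU-E these 5 genes were at 164, 197, 42.3, 252 and 121 CPM in that order.

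Genes of matrix proteins outside the stem cell list went both ways, and those given here were also chosen after their values were seen. Col16a1, a collagen that associates with fibrils, was at a mean of 14.3 CPM in BFU-E and 60.3 CPM in MPP (log2 fold change −2.07, edgeR adjusted p = 0.000169). Tgfbi, a secreted adhesion protein, was at 11.4 and 62.5 CPM (−2.45, edgeR adjusted p = 0.00548), and Col18a1, a basement membrane collagen, at 137 and 248 CPM (−0.86, edgeR adjusted p = 0.000314). Emilin2, an elastic fibre protein, was higher instead, at 314.5 and 174.5 CPM (0.85, edgeR adjusted p = 5.57e-05). Col1a2, a chain of type I collagen, was higher too, at 26.4 and 9.41 CPM (edgeR adjusted p = 0.0346), but lost the call without BFU-E 2, BFU-E 3, MPP 1 or MPP 3 (up to 0.292).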
